A study of Mus musculus with 6 samples.

Results

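The genes described are those of the enzymes that write, copy and remove DNA methylation: Dnmt1, Dnmt3a, Dnmt3b, Dnmt3l, Uhrf1, Tet1, Tet2, Tet3 and Tdg. They were found by name among the probes of 6 single-colour (Cy3) Agilent expression arrays, which name Tet1 by its older symbol Cxxc6 and Tet2 and Tet3 by clone names. All 9 genes were found, on 16 of 41174 probes, and 15 of these 16 probes passed the filter on dim probes, so that all 9 were among the 19305 genes tested. The arrays measured total RNA of J1, an established line of mouse embryonic stem cells, 96 h after transfection. The siRNA was non-targeting (NT), directed at Thoc2 or directed at Thoc5. Each group held 2 arrays, called the NT, Thoc2 and Thoc5 arrays below, and the cells of all groups were kept in ESGRO medium and transfected in M10 medium. Thoc2 and Thoc5 are subunits of THO, a complex that loads export factors onto new mRNA. By its title the study asked how THO bears on mRNA export of pluripotency genes and on self-renewal. Nothing in the labels says that replicates came from different cultures, so p-values measure only the spread between these arrays, which may be technical.

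In mammals DNA methylation sits mostly on the cytosine of CG dinucleotides. Dnmt3a and Dnmt3b set new methylation, and Dnmt3l, which lacks catalytic activity, binds and stimulates both. Dnmt1 copies the pattern onto the new strand at replication, guided by Uhrf1, which recognises half-methylated CG sites. Tet1, Tet2 and Tet3 oxidise methylated cytosine, and Tdg cuts out the most oxidised forms so that repair restores an unmethylated base. Mouse embryonic stem cells are known for strong expression of Dnmt3b and Dnmt3l and for use of a shorter Dnmt3a protein made from an internal promoter. The arrays measured mRNA, not methylation or protein.

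The starts of the 3 genes of the de novo group are shown because they differ in how many CG dinucleotides, the substrate of these enzymes, they hold. The windows run from 250 bases before to 50 bases after an annotated start, are credited to RefSeq on build GRCm38.p6, and carry each CG in capitals. That of Dnmt3a is the most downstream of 3 annotated starts (chr12:3891494-3891793, plus strand), that of Dnmt3b its single start (chr2:153649199-153649498, plus strand) and that of Dnmt3l the most upstream of 3 (chr10:78042037-78042336, plus strand).
Dnmt3a: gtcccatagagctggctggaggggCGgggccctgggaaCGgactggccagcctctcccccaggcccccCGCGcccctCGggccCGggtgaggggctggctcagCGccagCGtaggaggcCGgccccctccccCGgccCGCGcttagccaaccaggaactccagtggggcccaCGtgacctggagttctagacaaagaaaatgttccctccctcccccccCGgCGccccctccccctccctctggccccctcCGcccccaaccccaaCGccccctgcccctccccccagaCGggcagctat
Dnmt3b: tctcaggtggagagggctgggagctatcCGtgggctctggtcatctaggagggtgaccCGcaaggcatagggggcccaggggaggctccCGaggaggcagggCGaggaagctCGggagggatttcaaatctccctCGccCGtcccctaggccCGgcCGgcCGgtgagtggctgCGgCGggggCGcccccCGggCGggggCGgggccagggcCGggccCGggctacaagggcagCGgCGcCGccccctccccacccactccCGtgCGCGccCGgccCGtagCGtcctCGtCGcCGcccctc
Dnmt3l: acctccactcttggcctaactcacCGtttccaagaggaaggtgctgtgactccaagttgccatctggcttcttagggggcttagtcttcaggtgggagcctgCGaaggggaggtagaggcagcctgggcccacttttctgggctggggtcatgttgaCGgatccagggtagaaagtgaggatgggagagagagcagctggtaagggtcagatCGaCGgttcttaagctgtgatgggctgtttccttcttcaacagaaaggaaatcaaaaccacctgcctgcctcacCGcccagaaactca
The Dnmt3a window held 18 CG dinucleotides, and 29.7% of all 32851 such windows in the table held at least as many. The other Dnmt3a windows, which overlap each other far upstream, held 46 and 47, a number reached by 1.65% and 1.44% of windows. The Dnmt3b window held 30 (11.7% of windows) and the 3 Dnmt3l windows 6, 4 and 3 (56.4%, 68.6% and 76.7% of windows), all below the median of 7 over all windows. CG is its own reverse complement, so the count is the same on both strands. All 9 genes matched the table, with 16 windows, and the highest count among them was 57 at the start of Tet2 (0.152% of windows).

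The probes that stand for Dnmt3a and Dnmt1 are shown because the files place their 60 bases over longer genomic stretches, so each joins sequence from separate blocks of the genome as a spliced mRNA does. The Dnmt3a probe A_52_P76146 covers 782 bases on the plus strand of chr12:3825243-3826024 and the Dnmt1 probe A_51_P195573 covers 369 bases on the minus strand of chr9:20784085-20784453, both in build mm7, which the file headers name.
Dnmt3a probe: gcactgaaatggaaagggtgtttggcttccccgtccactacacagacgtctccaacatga
Dnmt1 probe: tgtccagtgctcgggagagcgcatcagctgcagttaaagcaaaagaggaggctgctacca
The other 14 probes each lie on an unbroken stretch of the genome. The files do not say which exon or untranslated region a probe matches. The mm7 positions cannot be read on the GRCm38.p6 windows above.

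Spots well above background made up 56.7% to 79.7% of the 43379 non-control spots of an array. The dimmest array was Thoc5 replicate 1, with a 75th percentile signal of 306 against 716 to 905 on the others, and replicate 1 of Thoc2 siRNA had 880 outlier spots against 63 to 155. The number of arrays limits the precision. Replicates correlated at 0.965 to 0.976 across genes and arrays of different groups at 0.954 to 0.975. Levels below are the processed signal on the log2 scale after the 75th percentile of its array was subtracted. Differences between groups are taken within a probe. Levels of different probes are combined in the choice of the brightest probe, the mean of kept probes and the marker sums. In limma the targets stood at 55.0% of NT (Thoc2 on the Thoc2 arrays, adjusted p = 0.302) and 41.4% of NT (Thoc5 on the Thoc5 arrays, adjusted p = 0.129), so neither target passed the threshold of 0.05. With an intensity trend and robust variances Thoc5 did (adjusted p = 0.0459). The 8 pluripotency markers were well above background on all 6 arrays.

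Dnmt3a mRNA was lower with Thoc2 siRNA and with Thoc5 siRNA than with NT siRNA. With Thoc2 siRNA it was at 51.1% of the NT level (log2 fold change -0.97 ± 0.16, where the error here and below is the SE from limma, n = 2 and 2 arrays) and with Thoc5 siRNA at 42.05% (-1.25 ± 0.16). Dnmt3b was at 76.9% and 68.05%, while the cofactor gene Dnmt3l was at 119% and 93.2%. None of these differences passed the threshold after adjustment over all genes, and 0 of the 19305 genes did in any comparison.

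The Dnmt3a level was 1.78 and 1.91 on the NT arrays, 0.85 and 0.90 on the Thoc2 arrays and 0.72 and 0.47 on the Thoc5 arrays. The 3 groups did not overlap: both NT arrays lay highest and both Thoc5 arrays lowest, with a gap of 0.87 between the NT and Thoc2 arrays and of 1.05 between the NT and Thoc5 arrays. Before scaling, the processed signal of this probe was 2795 and 3412 on the NT arrays, 1290 and 1370 on the Thoc2 arrays and 506 and 1020 on the Thoc5 arrays, the lowest being that of the dimmest array. It was well above background on all 6. The 95% interval of the difference ran from -1.40 to -0.53 for Thoc2 siRNA and from -1.69 to -0.81 for Thoc5 siRNA. In limma the adjusted p was 0.217 and 0.09998, and 0.09998 was also the smallest adjusted p of any gene after Thoc5 siRNA. Ordered by p, Dnmt3a stood at place 245 and 183 of all genes. By size, 3.87% and 5.37% of genes had a lower log2 fold change. With an intensity trend and robust variances the Thoc5 difference passed (adjusted p = 0.0224), as it did when only probes well above background on all 6 arrays were tested (0.0372). The Thoc2 difference passed under no setting tried (lowest adjusted p 0.0807).

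The other Dnmt3a probes were lower as well. Probe A_52_P169048, at chr12:3826602-3826661 in mm7, read 1.57 and 1.86 on the NT arrays, 0.46 and 0.47 on the Thoc2 arrays and 0.33 and 0.195 on the Thoc5 arrays. Its log2 fold changes were -1.25 ± 0.17 and -1.46 ± 0.17. Probe A_52_P30497, further downstream at chr12:3830965-3831024, read -2.53 and -2.15, then -2.87 and -3.05, then -2.95 and -3.11 in the same order of groups. Its fold changes of -0.62 ± 0.20 and -0.69 ± 0.20 were the smallest of the 3 probes, and its NT arrays lay above all 4 others. In the fit of 28371 single probes none of the 3 passed (adjusted p 0.211, 0.212 and 0.291 for Thoc2 siRNA and 0.102, 0.102 and 0.182 for Thoc5 siRNA, given in order from A_52_P169048 to A_52_P76146 and A_52_P30497).

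Slides could be set apart for part of the arrays. Slide 1 held NT replicate 1 and Thoc2 replicate 2, and there the Dnmt3a difference was -0.87. Slide 2 held NT replicate 2 and Thoc5 replicate 2, with a difference of -1.45. A fit with slide as a random block gave -0.97 and -1.28. In bulk RNA, fewer cells of a type and less mRNA per cell cannot be told apart. The summed log2 level of the fibroblast and feeder markers, 6 of 8 of which were measured well enough to be kept, was 1.02 and 0.64 on the NT arrays, -0.31 and 0.13 on the Thoc2 arrays and -0.57 and -0.42 on the Thoc5 arrays. This sum adds linear levels, and on the NT arrays most of it was Thy1, which read 0.64 and 0.03 there. Between 3 and 8 of the 8 fibroblast and feeder markers were well above background on an array. The summed level of the 8 pluripotency markers was 8.74 and 8.75, then 8.43 and 8.52, then 8.45 and 8.18. Most of it was Zfp42 (7.62 and 7.53 on the NT arrays) and Klf4 (6.785 and 6.975). Of the 8, 7 lay below 0 with Thoc2 siRNA (median -0.32) and 8 with Thoc5 siRNA (median -0.42). Pou5f1 was at -0.42 and -0.88, Sox2 at -0.50 and -0.52, Nanog at -0.073 and -0.50 and Tfcp2l1 at 0.06 and -0.25. None of the 8 passed the threshold. The fibroblast and the pluripotency sum were both lower on the Thoc2 and Thoc5 arrays than on the NT arrays, as Dnmt3a was, but the fibroblast markers did not move together. Of the 6 kept, 3 lay below 0 with Thoc2 siRNA (median 0.32) and 5 with Thoc5 siRNA (median -0.26). Thy1 was at -1.56 and -2.01 and Col1a1 at -0.97 and -1.37, whereas Col3a1 was at 2.03 and 0.32, Dcn at 1.06 and -0.30 and Postn at 0.74 and -0.069, none past the threshold. Col3a1 and Postn were not well above background on NT replicate 2, nor these and Dcn on Thoc5 replicate 1. The sum of the 5 primitive endoderm markers was 2.38 and -0.62 on the NT arrays, then 1.25 and 1.34, then 3.04 and 1.15. That of the 4 kept formative and primed epiblast markers was 4.58 and 3.78, then 4.305 and 4.41, then 4.05 and 4.32. Most of this sum was Pou3f1, which read 4.54 and 3.72 on the NT arrays. Of these 4, 2 lay below 0 with Thoc2 siRNA and 3 with Thoc5 siRNA. Otx2 was at -0.55 and -1.03 and Zic2 at -1.17 and -1.51. Pou3f1 was at 0.19 and 0.026 and Fgf5 at 0.58 and -0.02, and none of the 4 passed the threshold. Zic2 was not well above background on Thoc2 replicate 2 and Thoc5 replicate 1. The sum of the 4 kept trophectoderm markers was 2.93 and 2.89, then 2.51 and 2.45, then 3.29 and 3.14. Most of it was Krt8 and Tfap2c. Of these 4 trophectoderm markers, 2 lay below 0 with Thoc2 siRNA and 1 with Thoc5 siRNA. Krt8 was at -0.34 and 0.68 and Tfap2c at -0.62 and -0.30. Cdx2 was at 0.97 and 0.52 and Eomes at 0.39 and 0.24, and none of the 4 passed the threshold. The part of these markers in the Dnmt3a result was not tested.

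Dnmt3b read 4.36 and 4.24 on the NT arrays, 3.96 and 3.88 on the Thoc2 arrays and 3.84 and 3.65 on the Thoc5 arrays on probe A_51_P341540 (chr2:153428204-153428263, mm7). As for Dnmt3a, the groups ran from NT down to Thoc5 without overlap, but the gap between the Thoc2 and Thoc5 arrays was 0.035. The log2 fold change was -0.38 ± 0.15 with Thoc2 siRNA (95% interval -0.79 to 0.03, limma adjusted p = 0.364) and -0.56 ± 0.15 with Thoc5 siRNA (-0.97 to -0.15, adjusted p = 0.172). Within the shared slides it was -0.48 and -0.59.

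Dnmt3l read 6.25 and 5.83 on the NT arrays, 6.35 and 6.23 on the Thoc2 arrays and 6.23 and 5.65 on the Thoc5 arrays on probe A_51_P496720 (chr10:77717971-77718030, mm7). The replicates of the NT and the Thoc5 group lay further apart than the group means, and the groups overlapped. The differences were 0.25 ± 0.28 (95% interval -0.49 to 0.99, adjusted p = 0.706) and -0.10 ± 0.28 (-0.84 to 0.64, adjusted p = 0.876), which leaves room for changes as large as that of Dnmt3b in either direction.

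**Figure D1:**
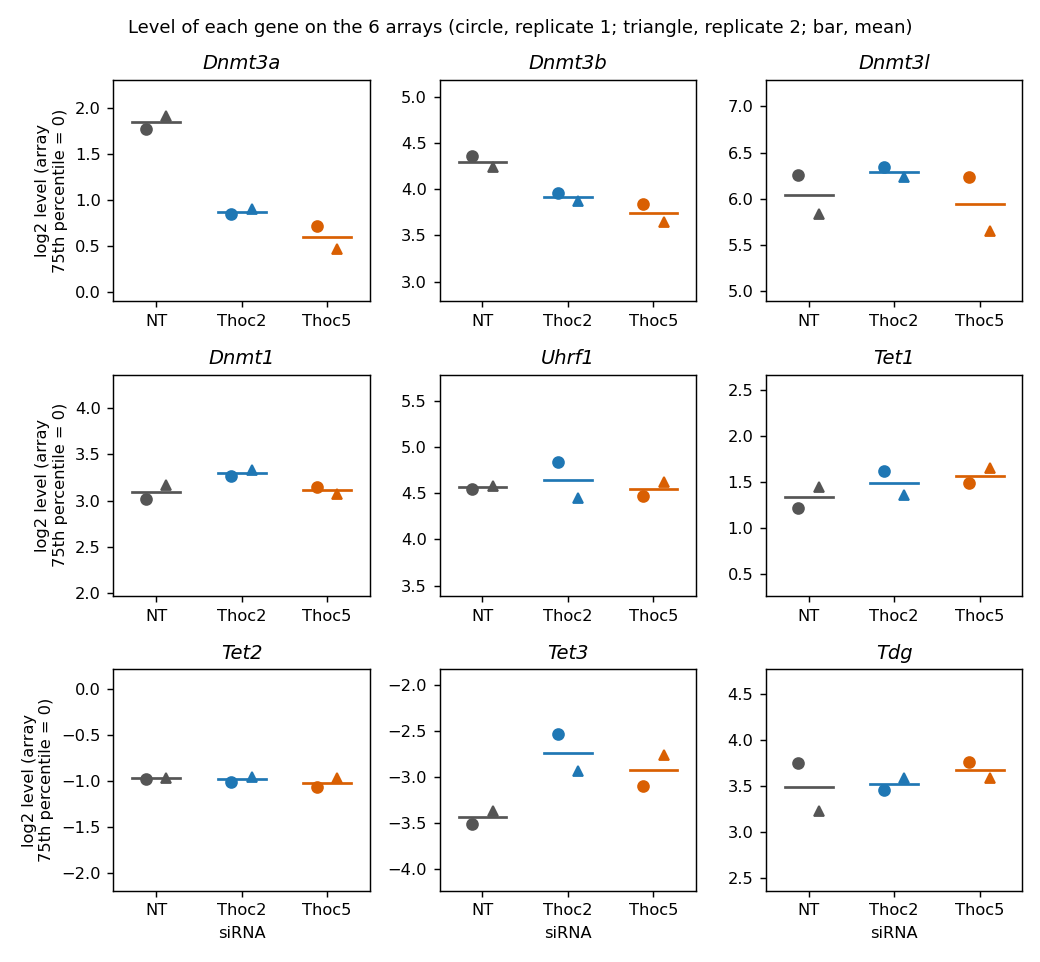
Level of the probe that stands for each of the 9 genes on the 6 arrays, as log2 signal scaled to the 75th percentile of its array (y axis, all panels spanning the same range) by siRNA (x axis); circles are replicate 1, triangles replicate 2 and bars the group mean. The Dnmt3a panel shows NT arrays at 1.78 and 1.91 above the 4 Thoc2 and Thoc5 arrays at 0.47 to 0.90, and the Dnmt3b panel shows the same order over a smaller range.

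The maintenance genes Dnmt1 and Uhrf1 differed little from NT in their means. Dnmt1 read 3.01 and 3.17 on the NT arrays, 3.26 and 3.33 on the Thoc2 arrays and 3.15 and 3.07 on the Thoc5 arrays. Both Thoc2 arrays lay above the other 4 arrays, while the NT and Thoc5 arrays overlapped. The difference was 0.20 ± 0.14 for Thoc2 siRNA (95% interval -0.18 to 0.59, adjusted p = 0.549) and 0.02 ± 0.14 for Thoc5 siRNA (-0.36 to 0.40, adjusted p = 0.962). The Dnmt1 signs turned to -0.13 and -0.31 with normexp background correction. That setting moved the median of all genes the other way, up to 0.290 and 0.242 from 0.061 and -0.085 here.

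Uhrf1 read 4.55 and 4.58 on the NT arrays, 4.84 and 4.46 on the Thoc2 arrays and 4.47 and 4.63 on the Thoc5 arrays on probe A_52_P314705 (chr17:54481483-54481542, mm7). All 3 groups overlapped. The differences were 0.08 ± 0.19 (95% interval -0.42 to 0.59) and -0.02 ± 0.19 (-0.52 to 0.49), with adjusted p of 0.859 and 0.977. A neighbouring probe, A_51_P491742, gave 0.04 ± 0.18 and -0.05 ± 0.18. For both maintenance genes the intervals ended above the mean Dnmt3a differences of -0.97 and -1.25. They measure only the spread between these arrays. With normexp Uhrf1 was at -0.37 and -0.36.

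The 3 Tet genes each gave a different order of the groups. Tet1, a Tet enzyme prominent in embryonic stem cells, read 1.22 and 1.45 on the NT arrays, 1.62 and 1.36 on the Thoc2 arrays and 1.49 and 1.65 on the Thoc5 arrays. The NT and Thoc2 arrays overlapped, and the Thoc5 arrays lay above the NT arrays by a gap of 0.039. The differences were 0.15 ± 0.18 (adjusted p = 0.722) and 0.23 ± 0.18 (adjusted p = 0.563), and with normexp they turned to -0.12 and -0.02.

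Tet2 read -0.98 and -0.97 on the NT arrays, -1.01 and -0.96 on the Thoc2 arrays and -1.07 and -0.97 on the Thoc5 arrays on probe A_51_P340083. It varied little: 0.0736% of genes had a smaller standard deviation over the 6 arrays. The differences were -0.01 ± 0.14 (95% interval -0.37 to 0.35) and -0.05 ± 0.14 (-0.41 to 0.31). The other Tet2 probe, A_52_P502083, read -1.09 and -1.33, then -1.21 and -1.33, then -0.84 and -0.85. On it both Thoc5 arrays lay above the rest, with a difference of 0.37 ± 0.16 (adjusted p = 0.304) where the first probe gave -0.05, so the probes disagreed for Thoc5 siRNA.

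Tet3 was the only gene of the group with a mean more than 0.5 above NT, and its probes disagreed. Probe A_52_P173108, the brightest, read -3.51 and -3.37 on the NT arrays, -2.54 and -2.94 on the Thoc2 arrays and -3.09 and -2.76 on the Thoc5 arrays. On these scaled levels all 4 Thoc2 and Thoc5 arrays lay above the NT arrays, at 162% and 142% of the NT level in the mean (0.70 ± 0.22, adjusted p = 0.292, and 0.51 ± 0.22, adjusted p = 0.306). Before scaling its processed signal was only 72 and 88 on the NT arrays, 123 and 96 on the Thoc2 arrays and 36 and 109 on the Thoc5 arrays. The signal on the dimmest array, Thoc5 replicate 1, thus lay below both NT arrays before scaling. Probe A_52_P491273, which carries another clone name and lies further upstream on the minus strand (chr6:83428120-83428179 against chr6:83388140-83388199, mm7), gave -0.59 ± 0.51 with Thoc2 siRNA and 1.53 ± 0.51 with Thoc5 siRNA. Its NT replicates, at -4.72 and -3.62, and its Thoc2 replicates, at -4.26 and -5.26, each lay far apart. Its Thoc5 replicates read -2.56 and -2.71, above the other 4 arrays. A further probe, A_51_P199339, was not well above background on either NT array and was so on 1 Thoc2 and 1 Thoc5 array, so it was not tested. The mean of both kept probes put Tet3 at 0.054 with Thoc2 siRNA (adjusted p = 0.952) and at 1.02 with Thoc5 siRNA (adjusted p = 0.238), and Thoc5 minus Thoc2 at 0.97, where the brightest probe alone gave -0.19.

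Tdg read 3.75 and 3.23 on the NT arrays, 3.46 and 3.59 on the Thoc2 arrays and 3.76 and 3.59 on the Thoc5 arrays on probe A_51_P338336. The 2 NT arrays spanned all but the highest of the others. The differences were 0.03 ± 0.23 (95% interval -0.57 to 0.64) and 0.18 ± 0.23 (-0.42 to 0.79). The second probe named Tdg, A_52_P33287, is placed elsewhere on the chromosome and on the other strand (chr10:41863869-41863928 against chr10:82191750-82191809, mm7). It may report a similar copy, so its values (-0.12 ± 0.24 and 0.36 ± 0.24) are uncertain as a measure of Tdg.

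Within the shared slides, 1 array against 1, the genes other than Dnmt3a and Dnmt3b split by whether the sign held. Tet3 was above NT on both slides, at 0.57 (Thoc2) and 0.60 (Thoc5), and Tet1 was at 0.13 and 0.20. Dnmt1 was at 0.32 and -0.097, Uhrf1 at -0.096 and 0.047, and Tdg at -0.16 and 0.36. Dnmt3l was at -0.022 and -0.18 and Tet2 at 0.024 and -0.0035. Dnmt1 with Thoc5 siRNA, Uhrf1 with either siRNA, and Dnmt3l, Tet2 and Tdg with Thoc2 siRNA thus had the opposite sign to their group means, and none of those means had passed.

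**Figure D2:**
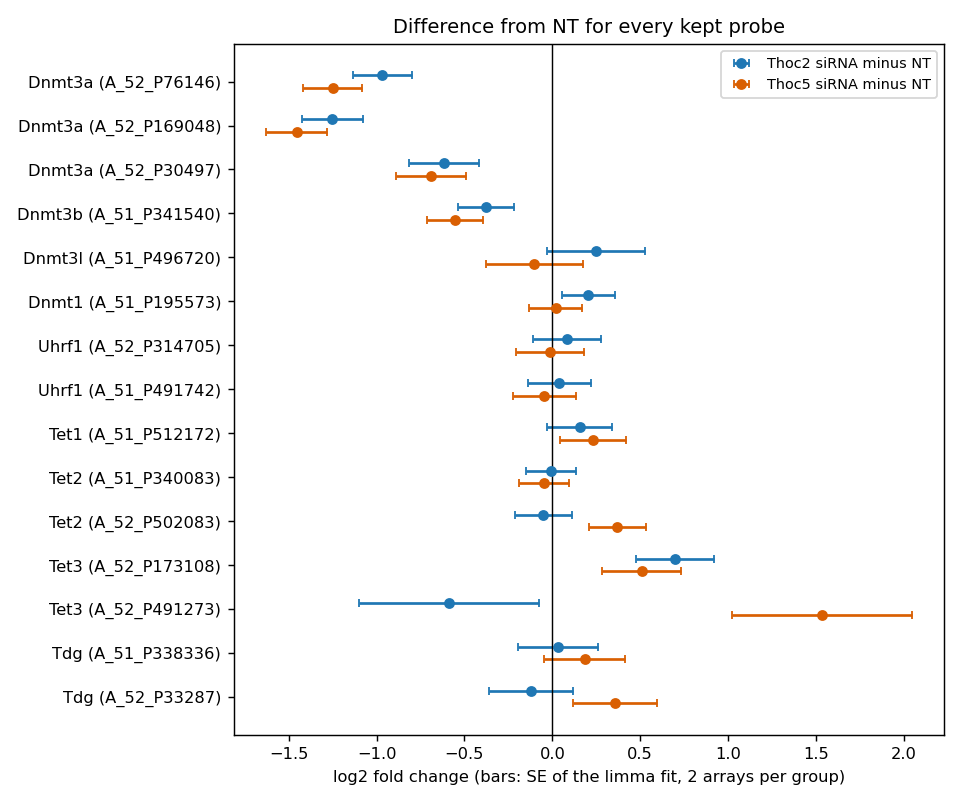
Log2 fold change against NT (x axis) of each of the 15 kept probes of the 9 genes (y axis), for Thoc2 siRNA (blue) and Thoc5 siRNA (orange); bars are limma standard errors. The 3 Dnmt3a probes lie between -0.62 and -1.46, the Dnmt3b probe at -0.38 and -0.56, and the 2 Tet3 probes on opposite sides of 0 for Thoc2 siRNA.

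Counted over the 9 genes, 0 passed in limma after adjustment over all genes in the 3 comparisons, where 0% of all genes passed. Intensity trend and robust variances in limma called 4 genes in all for Thoc2 siRNA, none of them among the 9. For Thoc5 siRNA that setting called 661 of 19305 genes, Dnmt3a among them. At an unadjusted p under 0.05 the Thoc2 comparison gave 2817 genes (14.6%) and held Dnmt3a lower and Tet3 higher, where 6.5% of all genes were lower and 8.1% higher. The Thoc5 comparison gave 3775 genes (19.6%) and held Dnmt3a and Dnmt3b lower and none of the 9 higher, where 12.1% of all genes were lower and 7.45% higher. Groups did not overlap for 4 of the 9 genes in each of these comparisons. With Thoc2 siRNA Dnmt3a and Dnmt3b were lower (20.9% of all genes) and Dnmt1 and Tet3 higher (26.1%). With Thoc5 siRNA Dnmt3a and Dnmt3b were lower (31.2%) and Tet1 and Tet3 higher (21.7%). A count of 2 of 9 is 22.2%, so neither count stood far from its background. The median of the 9 genes was 0.082 and -0.016, beside 0.061 and -0.085 for all genes. Both comparisons use the same NT arrays.

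The Thoc5 and Thoc2 arrays were also set against each other directly. No slide held arrays of both groups, so slide and siRNA cannot be told apart in this comparison. Dnmt3a was lower with Thoc5 siRNA by a difference of -0.28 ± 0.16 (95% interval -0.72 to 0.15, adjusted p = 0.641), Dnmt3b by -0.18 ± 0.15 (-0.59 to 0.23, adjusted p = 0.726) and Dnmt3l by -0.35 ± 0.28 (-1.09 to 0.39, adjusted p = 0.704). At an unadjusted p under 0.05 the comparison gave 1775 genes (9.19%; 7% of all genes lower and 2.2% higher), none of them among the 9. Groups did not overlap for Dnmt1, Dnmt3a and Dnmt3b, which were lower (32.6% of all genes), and for Tdg, which was higher (13.2%). The gap for Tdg was only 0.0032, with a difference of 0.15 ± 0.23. The median of the 9 genes was -0.18 and that of all genes -0.13.

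**Figure D3:**
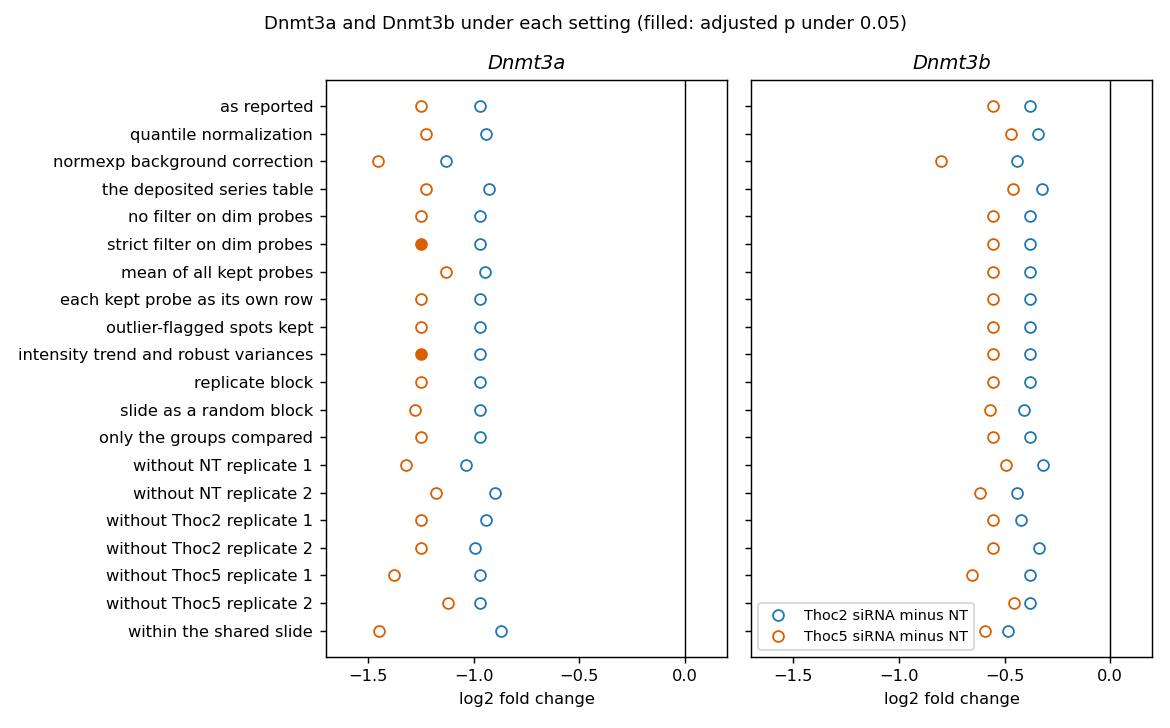
Log2 fold change against NT (x axis) of Dnmt3a and Dnmt3b as reported and under each other setting (y axis), for Thoc2 siRNA (blue) and Thoc5 siRNA (orange); filled points have an adjusted p under 0.05, and values within the shared slide have no test. Every value lies below 0, and Dnmt3a with Thoc5 siRNA is filled under the strict filter and under the intensity trend.

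As a description of shape, the genes whose level ran most alike over the 6 arrays were found among 19016 genes measured on all of them. For Dnmt3a these were Firre (Pearson r = 0.998), a long noncoding RNA gene, and the transcript AK036397 (0.996). For Dnmt3b they were Mif (0.998), a cytokine gene, and Nln (0.997), a peptidase gene, and for Tet3 Slc35d2 (0.998) and Ssr1 (0.997). Many other genes ran nearly as much alike: 1047 genes (5.51%) had r above 0.9 with Dnmt3a, 836 (4.40%) with Dnmt3b and 398 (2.09%) with Tet3. The points share arrays and their scaling.

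Other genes of the pathway were read from 5 lists: readers of methylation, genes of maintenance and targeting, demethylation and repair, methyl donor synthesis, and germline genes known for methylated promoters. Of their 60 kept members, 0 passed after adjustment over all genes. The list of maintenance and targeting genes had 3 of 17 members higher and 1 lower at an unadjusted p under 0.05 in each comparison with NT. Over all genes 8.1% were higher and 6.5% lower with Thoc2 siRNA, and 7.45% higher and 12.1% lower with Thoc5 siRNA. The list had medians of 0.085 (Thoc2) and 0.13 (Thoc5). The member that was lower both times was Dppa3, a maternal factor known to keep Uhrf1 off chromatin. It read 0.53 and 0.49 on the NT arrays, -1.54 and -1.43 on the Thoc2 arrays and -1.23 and -1.495 on the Thoc5 arrays, so it stood at 25.2% and 27.3% of NT (adjusted p = 0.207 and 0.09998). Atrx, a chromatin remodeller of repeats, was higher in both (1.497 ± 0.22, adjusted p = 0.207, and 1.79 ± 0.22, adjusted p = 0.09998). Suv39h1, a histone H3 lysine methyltransferase of heterochromatin, was at 0.45 ± 0.18 and 1.15 ± 0.18 (adjusted p = 0.370 and 0.106).

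Of the 9 readers, 1 was higher and 1 lower at an unadjusted p under 0.05 with Thoc2 siRNA (8.1% and 6.5% of all genes) and 2 were higher with Thoc5 siRNA (7.45%), with medians of -0.043 and 0.14. Mbd1, which binds methylated CG, was at 0.65 ± 0.20 and 1.19 ± 0.20. Uhrf2, the relative of Uhrf1, was at -0.54 ± 0.17 and -0.38 ± 0.17, where Uhrf1 itself was near 0. Zbtb4, a zinc finger reader, was at -0.34 ± 0.20 and 0.55 ± 0.20. Among the 18 genes of demethylation and repair, 4 were higher and 1 lower with Thoc2 siRNA (8.1% and 6.5% of all genes) and 4 higher and 5 lower with Thoc5 siRNA (7.45% and 12.1%), with medians of -0.099 and -0.13. Gadd45g, a stress gene linked to repair-based demethylation, was at 0.51 ± 0.15 and 0.86 ± 0.15. Smug1, a uracil glycosylase, was at 0.56 ± 0.17 and 0.68 ± 0.17. Idh2, whose mitochondrial enzyme makes the 2-oxoglutarate that Tet enzymes need, was at -0.68 ± 0.15 and -0.84 ± 0.15.

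Of the 6 methyl donor genes none reached an unadjusted p under 0.05 against NT (medians -0.18 and -0.16). Mtr, the methionine synthase gene, was at 0.57 ± 0.22 and 0.58 ± 0.22, its reductase Mtrr at -0.50 ± 0.26 and -0.50 ± 0.26, and Mat2b, a regulatory subunit for S-adenosylmethionine synthesis, at -0.74 ± 0.37 and -0.18 ± 0.37. The Mat2b value with Thoc2 siRNA was -0.25 without Thoc2 replicate 1 and -1.22 without Thoc2 replicate 2. Of the 10 kept germline genes, 1 was higher and 3 lower with Thoc2 siRNA (8.1% and 6.5% of all genes) and 4 higher and 2 lower with Thoc5 siRNA (7.45% and 12.1%), with medians of -0.084 and 0.16. Taf7l, a germ cell variant of a transcription initiation factor, read -1.61 and -1.95 on the NT arrays, -1.39 and -1.86 on the Thoc2 arrays and 0.31 and 0.44 on the Thoc5 arrays. Both Thoc5 arrays lay above the other 4, at 445% of NT in the mean (adjusted p = 0.09998), and the Thoc5 minus Thoc2 difference was 2.003 ± 0.24 (adjusted p = 0.411). Slc25a31, a germ cell ADP/ATP carrier, was at 0.41 ± 0.24 with Thoc2 siRNA and 1.52 ± 0.24 with Thoc5 siRNA (adjusted p = 0.493 and 0.106), and Tex19.1, which is active in pluripotent and germ cells, at -0.68 ± 0.15 and -0.67 ± 0.15. Dppa3, Atrx, Suv39h1, Mbd1, Gadd45g, Idh2 and Taf7l passed for Thoc5 siRNA under the 2 settings in which Dnmt3a did. They had been named for their small p, and 661 of 19305 genes passed under the intensity trend and 543 of 15056 under the strict filter. Slc25a31 passed under the strict filter alone (adjusted p = 0.0438) and Tex19.1 under the intensity trend alone (adjusted p = 0.0423).

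**Figure D4:**
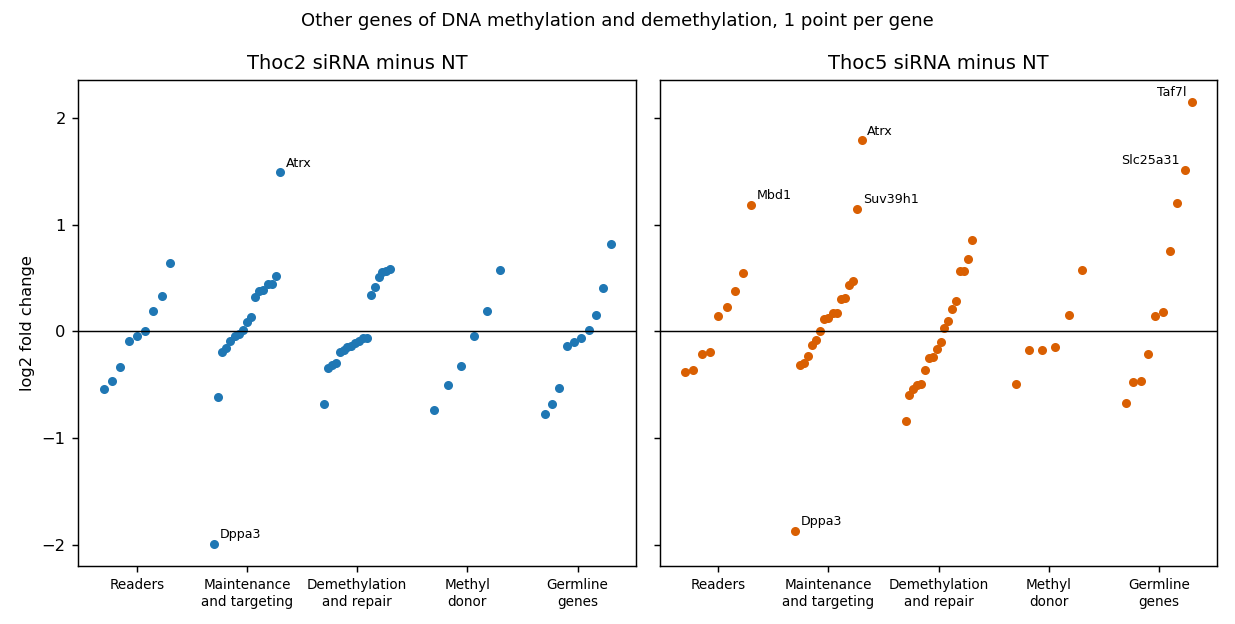
Log2 fold change against NT (y axis) of the kept genes of the 5 lists (x axis), 1 point per gene, ordered within a list, with Thoc2 siRNA on the left and Thoc5 siRNA on the right. Names are given for the named genes more than 1 from 0: Dppa3 lies near -2 in both, Atrx above 1 in both, and Taf7l at 2.16 with Thoc5 siRNA.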

How the data were processed

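Per the file headers, the deposited scanner files hold the intensity of each spot as processed signal (background-subtracted and detrended) and name Feature Extraction 9.5.3.1 and build mm7, whereas version 11.0 stands in the submitters' processing notes. The authors also deposited a table of log2 values with equal medians (5.816) and the rank order of the processed signal (a Spearman correlation of 1 on each array); how it was made is not given in the sources used here. Levels were log2 processed signal minus each array's 75th percentile. Control spots and outlier spots were left out, and a probe was kept if well above background in at least 0.5 of its spots on every array of at least 1 group. The brightest kept probe stood for a gene. A summed marker level is the log2 of the summed linear levels of the kept markers. Names came from accessions or symbols in RefSeq gene tables on GRCm38.p6. Tests were two-sided in R 4.3.3 with limma 3.58.1 and the data.table package (version 1.17.8) on all 6 arrays, adjusted by Benjamini-Hochberg over all genes, threshold 0.05, and checked on simulated data. The members, lists and named-gene rule (all 9 genes, both siRNA targets, the 3 genes of smallest p in each list, and the 2 most alike genes) were chosen with earlier results of these data known. Alternatives covered background correction, scaling, filter, probe choice, variance model, slide, replicate block and left-out arrays.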

Additional observations from a re-analysis of the deposited data

How the results depend on the processing

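Dnmt3a and Dnmt3b kept their sign in all 3 comparisons under every setting tried, and the sign of Tet3 against NT held too, but with the mean of its kept probes its size went from 0.70 to 0.054 with Thoc2 siRNA (adjusted p = 0.952) and from 0.51 to 1.02 with Thoc5 siRNA (adjusted p = 0.238). Dnmt3a lay between -1.13 and -0.87 with Thoc2 siRNA and between -1.45 and -1.12 with Thoc5 siRNA. In limma 4 genes passed for Thoc2 siRNA with an intensity trend and robust variances. For Thoc5 siRNA 661 of 19305 genes passed with that setting and 543 of 15056 with the strict filter, where 0 passed otherwise. Of the 9 genes 1, Dnmt3a, was among them each time for Thoc5 siRNA. Equal replicate numbers did not pair the arrays: deviations from group means correlated at -0.200 (NT and Thoc2), 0.143 (NT and Thoc5) and 0.218 (Thoc2 and Thoc5), and with a replicate block 0 genes passed in any comparison (Dnmt3a adjusted p = 0.295 and 0.224). Of 504 member values under other settings 41 were counted with the opposite sign, none past the threshold. The 504 include the values within the shared slides, whose sign changes are given above and are not among the 41. The cause was not tested. With normexp the Thoc2 values were -0.13 (Dnmt1), -0.29 (Dnmt3l), -0.37 (Uhrf1), -0.12 (Tet1), 0.30 (Tet2), -0.41 (Tdg), 0.53 (Zbtb4) and -0.021 (Gadd45g), the Thoc5 values -0.31 (Dnmt1), -0.016 (Tet1), 0.083 (Tet2) and -0.15 (Tdg), and Thoc5 minus Thoc2 was 0.0019 for Uhrf1. With quantile normalization and the series table, Thoc5 values were 0.0295 and 0.0197 (Dnmt3l) and 0.089 and 0.090 (Uhrf1), and Thoc5 minus Thoc2 values were 0.013 and 0.016 (Tet2) and 0.059 and 0.10 (Tet3). With the mean of kept probes Tdg was at -0.044 (Thoc2), Tet2 at 0.16 and Mat2b at 0.14 (Thoc5), and Tet2 at 0.19 and Tet3 at 0.97 (Thoc5 minus Thoc2). With slide as a random block Tet2 was at 0.0025 and Tdg at -0.0059 (Thoc2). Leaving out 1 array gave ranges across 0 for Uhrf1 (-0.11 to 0.27), Tet2 (-0.037 to 0.019), Tdg (-0.23 to 0.29) and Taf7l (-0.086 to 0.39) with Thoc2 siRNA, for Dnmt1 (-0.059 to 0.097), Dnmt3l (-0.40 to 0.19), Uhrf1 (-0.093 to 0.062), Tet2 (-0.096 to 0.0020) and Tdg (-0.077 to 0.44) with Thoc5 siRNA, and for Uhrf1 (-0.29 to 0.095), Tet1 (-0.057 to 0.21), Tet2 (-0.087 to 0.011) and Tet3 (-0.39 to 0.010) in Thoc5 minus Thoc2. Mat2b kept its sign with 1 array left out but ranged from -1.22 to -0.25 with Thoc2 siRNA. Precision is limited by 2 arrays per group.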
